A study of Mus musculus with 7 samples.

Results

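A set of 7 transcription factors of the pancreatic beta cell was followed in islets: Pdx1, Nkx6-1, Nkx2-2, Mnx1, Mafa, Glis3 and Hnf4a. A probe set was taken for a factor where the platform annotation gave it that 1 gene symbol, and each of the 7 had 1 such probe set, so all 7 were found among the 22180 genes tested. The islets came from mice labelled Gata6 KO, which carried loxP-flanked Gata6 alleles together with a Pdx1-Cre transgene (4 arrays), and from control mice with the same floxed alleles and no Cre (3 arrays). Every array held islets of 3 mice aged 2 months, isolated with collagenase and pooled. Pdx1-Cre recombines in the pancreatic epithelium, from which endocrine, acinar and duct cells all arise, and an effect of Cre itself cannot be told apart from one of Gata6 because the controls had none. The transgene uses regulatory sequence of Pdx1, which is among the 7 genes, and no source used here says how much of Pdx1 it carries.

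Beta cells make insulin and release it when glucose rises, and their identity is held by a small set of transcription factors that act on one another and on the insulin genes. Pdx1, Nkx6-1, Nkx2-2 and Mnx1 are homeodomain proteins that act in pancreas or endocrine development and again in the mature beta cell. Mafa, a basic leucine zipper factor, marks mature beta cells, Glis3 is a zinc finger factor of beta cells and pancreatic ducts, and Hnf4a is a nuclear receptor also found in liver, gut and acinar cells. Mutations of several of the human genes cause monogenic diabetes. Gata6 is a zinc finger factor of pancreas development that binds GATA-containing DNA.

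The arrays gave log2 signals, so a difference of 1 is a 2-fold change of signal, and no detection calls were used. Array medians over 41345 probe sets lay between 1.89 and 2.11 on the Gata6 KO arrays and between 1.72 and 1.78 on the control arrays, and over all genes the log2 differences had a median of 0.17. The targeted gene went against its label. Gata6 measured 5.41, 5.35, 5.34 and 5.01 log2 units on the arrays labelled Gata6 KO, against 4.5998, 4.80 and 4.83 on control arrays, and this difference did not pass (limma adjusted p = 0.0622). It passed, higher on the Gata6 KO arrays, with the replicate block (adjusted p = 0.0388) and without Gata6 KO array 4 (0.0333). It also passed without the trend of eBayes (0.0471) and with the lowest 40% of genes left out (0.0495). The difference of 0.54 shrank to 0.29 when each array was centred on its median (limma adjusted p = 0.39). After quantile normalization it was 0.34 (adjusted p = 0.236), and neither passed. The exact two-sided permutation test of the deposited values gave p = 0.0571. The position of the Gata6 probes relative to the deleted part is not given, so that the signal checks nothing if they lie outside it. Directions below are those of the labels. Xist, made from the inactive X chromosome of females, was low on Gata6 KO array 3 (2.15) and control array 3 (1.34) and at least 5.02 on the other 5 arrays.

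The promoters of the 3 factors with the largest falls, and both annotated starts of Hnf4a, the factor with the smallest difference, are shown to place GATA motifs. Each window spans 250 bases before and 50 bases after the annotated start of transcription (RefSeq, GRCm38.p6). Capitals mark GATAA, searched on both strands, so that it also appears as TTATC. The Nkx6-1 window is chr5:101664662-101664961 (minus strand), Nkx2-2 is chr2:147186353-147186652 (minus strand) and Pdx1 is chr5:147269847-147270146 (plus strand). The Nkx2-2 window lies inside the gene's span (147176485 to 147195434), so an upstream start near 147195434 is not covered. For Hnf4a the upstream window, around the start used in pancreatic islets (the P2 promoter), is chr2:163506607-163506906, and the downstream window, around the start used in liver, is chr2:163546905-163547204 (both plus strand).
Nkx6-1: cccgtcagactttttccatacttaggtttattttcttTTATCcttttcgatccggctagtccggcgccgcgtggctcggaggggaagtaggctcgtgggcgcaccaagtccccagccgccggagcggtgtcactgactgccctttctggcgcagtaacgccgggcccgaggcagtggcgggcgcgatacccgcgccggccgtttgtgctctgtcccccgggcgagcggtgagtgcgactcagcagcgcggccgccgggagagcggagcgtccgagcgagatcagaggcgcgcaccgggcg
Nkx2-2: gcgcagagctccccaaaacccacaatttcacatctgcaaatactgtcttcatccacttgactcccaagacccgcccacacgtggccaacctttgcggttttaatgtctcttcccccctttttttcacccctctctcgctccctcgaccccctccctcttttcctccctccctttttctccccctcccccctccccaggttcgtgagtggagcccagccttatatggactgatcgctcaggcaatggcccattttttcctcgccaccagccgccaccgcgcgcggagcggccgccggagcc
Pdx1: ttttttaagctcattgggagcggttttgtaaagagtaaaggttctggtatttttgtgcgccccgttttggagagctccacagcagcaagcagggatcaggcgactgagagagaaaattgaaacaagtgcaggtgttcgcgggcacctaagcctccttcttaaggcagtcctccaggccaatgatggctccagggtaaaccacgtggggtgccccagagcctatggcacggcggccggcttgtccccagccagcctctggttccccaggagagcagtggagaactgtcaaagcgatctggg
Hnf4a, upstream start: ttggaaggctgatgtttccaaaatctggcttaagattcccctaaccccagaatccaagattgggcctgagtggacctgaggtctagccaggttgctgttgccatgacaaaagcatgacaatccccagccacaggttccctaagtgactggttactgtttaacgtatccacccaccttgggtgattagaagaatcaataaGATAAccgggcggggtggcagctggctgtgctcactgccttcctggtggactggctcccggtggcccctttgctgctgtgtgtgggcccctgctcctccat
Hnf4a, downstream start: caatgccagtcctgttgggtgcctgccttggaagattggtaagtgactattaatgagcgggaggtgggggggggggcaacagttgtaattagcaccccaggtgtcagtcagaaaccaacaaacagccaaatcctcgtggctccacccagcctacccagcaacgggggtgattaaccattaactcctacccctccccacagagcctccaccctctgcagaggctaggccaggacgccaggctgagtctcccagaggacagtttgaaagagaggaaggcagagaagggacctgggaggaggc

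GATAA stood in 2 of the 7 windows found for 6 of the factors (no entry for Mafa). The Nkx6-1 window held it 213 bases before the start and the upstream Hnf4a window 51 bases before it. Of all 32851 promoter windows of the same length 25.4% held the motif. TAAT, the core bound by many homeodomain proteins, was searched on both strands as TAAT or ATTA, and stood in 4 of the 7 windows (Nkx2-2, Mnx1 and both of Hnf4a) and in 58.0% of all windows. The letters TAAT can overlap the end of GATAA. A match describes these letters only. The factor with the largest fall and the one with the smallest difference both held GATAA.

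Of the 7 factors 5 fell in Gata6 KO islets: Nkx6-1, Nkx2-2, Pdx1, Glis3 and Mafa, by between -2.42 and -0.99 log2 units. The remaining 2, Mnx1 and Hnf4a, had lower means without passing the test, and none was higher. Lower calls were made for 7.36% of all 22180 genes (limma, with a threshold of 0.05 on the Benjamini-Hochberg adjusted p) and calls in either direction for 24.7%. For all 7 factors every Gata6 KO array lay below every control array, which held for 9.96% of all genes in this direction and for 34.3% in either. In bulk islets, fewer beta cells and less RNA of a gene per beta cell cannot be told apart. Since each array holds another pool, the tests see the variation from pool to pool and none among single mice.

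**Figure D1:**
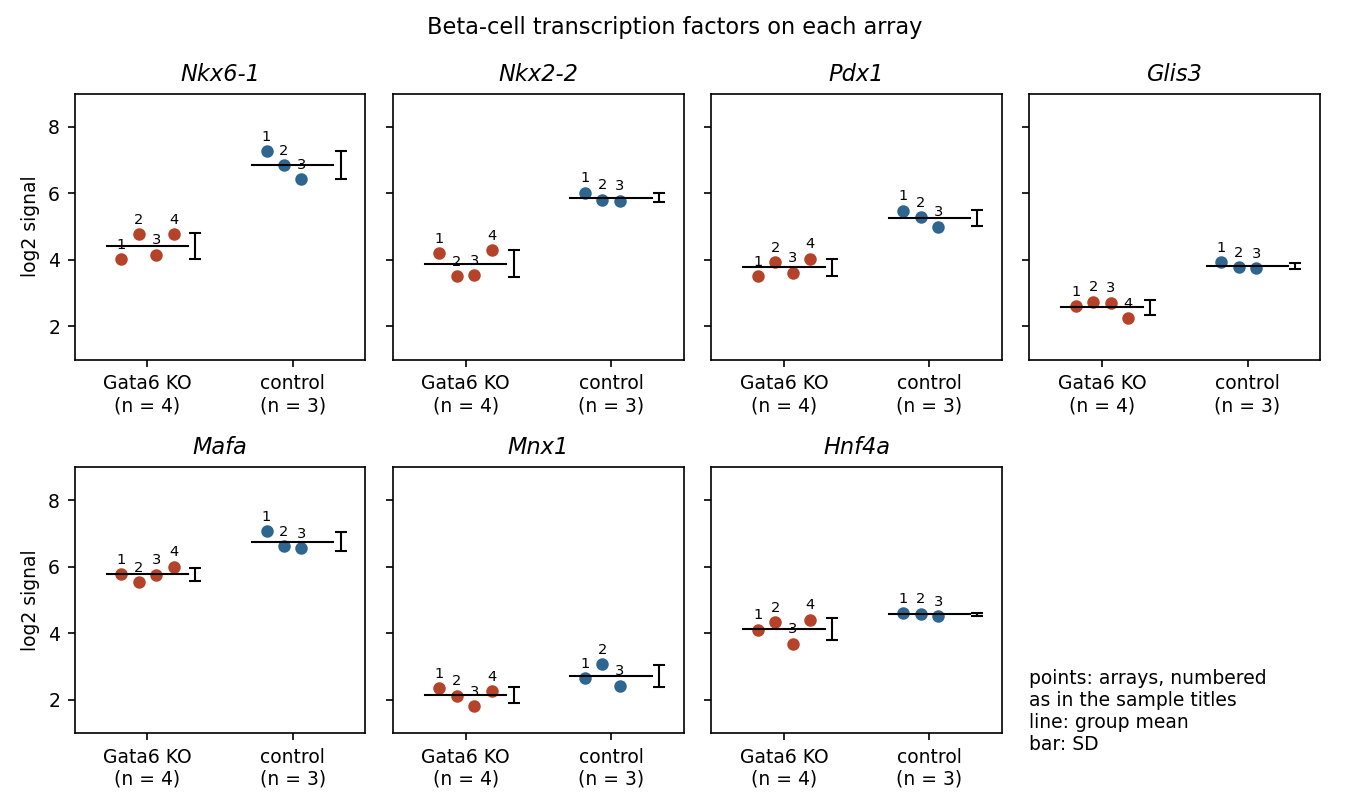
Log2 signal (y axis) of the 7 factors on each array, Gata6 KO arrays to the left (n = 4) and control arrays to the right (n = 3), each point labelled with the array's number, with the group mean as a line and the SD as a bar. The gap between the groups is widest for Nkx6-1 (means 4.43 and 6.84) and narrowest for Hnf4a (4.13 and 4.57), and no factor's groups overlap.

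Nkx6-1, which holds beta cells to the insulin-making fate and represses that of alpha cells, lies on chromosome 5 at 101659184 to 101664711 (RefSeq gene span, GRCm38.p6). It measured 4.02, 4.76, 4.15 and 4.77 log2 units on Gata6 KO arrays 1 to 4, against 7.26, 6.85 and 6.42 on control arrays 1 to 3. Its highest Gata6 KO array lay well below its lowest control array, and the arrays within each group spread by a similar amount (SD 0.40, n = 4, and SD 0.42, n = 3). The log2 difference was -2.42 (SE 0.26, 95% interval -2.97 to -1.86, limma adjusted p = 2.38e-05), a 5.35-fold lower signal, the largest fall among the 7 factors.

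Nkx2-2, needed for the specification of beta cells and for repression of other islet fates, lies on chromosome 2 at 147176485 to 147195434. It measured 4.20, 3.51, 3.55 and 4.29 on the Gata6 KO arrays, against 6.02, 5.81 and 5.78 on control arrays. Its Gata6 KO arrays fell into a higher pair (arrays 1 and 4) and a lower pair (arrays 2 and 3), while the control arrays lay close together. Nkx2-2 differed by -1.98 log2 units (SE 0.24, 95% interval -2.49 to -1.47, limma adjusted p = 6.4e-05), a 3.94-fold lower signal. A further probe set shared by Nkx2-2 and its antisense gene carries 2 symbols and was not used.

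Pdx1, the factor of early pancreas formation that also activates insulin genes, lies on chromosome 5 at 147270097 to 147275848. It measured 3.50, 3.94, 3.62 and 4.03 on the Gata6 KO arrays, against 5.48, 5.27 and 5.001 on control arrays. The groups were nearly 1 log2 unit apart at their closest points, control array 3 and Gata6 KO array 4. Pdx1 differed by -1.48 log2 units (SE 0.22, 95% interval -1.95 to -1.01, limma adjusted p = 0.000311), a 2.79-fold lower signal.

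Mnx1, a homeodomain factor of dorsal pancreas formation that stays on in mature beta cells, lies on chromosome 5 at 29473823 to 29478470. It measured 2.35, 2.13, 1.81 and 2.27 on the Gata6 KO arrays, against 2.65, 3.08 and 2.42 on control arrays. The Gata6 KO values lay around the medians of those arrays (1.89 to 2.11). Gata6 KO array 1 and control array 3 nearly met, and control array 2 stood above the rest. The log2 difference was -0.58 (SE 0.23, 95% interval -1.07 to -0.09) and did not pass (limma adjusted p = 0.0798, unadjusted p = 0.0241). It passed when each array was centred on its median (-0.82, adjusted p = 0.0221) or quantile-normalized again (-0.85, adjusted p = 0.0175), since either step removes the higher overall signal of the Gata6 KO arrays.

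Mafa, the factor that accompanies beta-cell maturation and drives insulin genes, lies on chromosome 15 at 75745501 to 75748321. It measured 5.78, 5.54, 5.76 and 6.003 on the Gata6 KO arrays, against 7.08, 6.62 and 6.57 on control arrays. The Gata6 KO arrays lay close together (SD 0.19, n = 4), and control array 1 stood above the other control arrays. Mafa differed by -0.99 log2 units (SE 0.21, 95% interval -1.43 to -0.54, limma adjusted p = 0.00363), a 1.98-fold lower signal and the smallest of the 5 called falls.

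Glis3, which acts on insulin genes and on the formation of endocrine progenitors, lies on chromosome 19 at 28258851 to 28680265. It measured 2.61, 2.75, 2.71 and 2.25 on the Gata6 KO arrays, against 3.92, 3.78 and 3.75 on control arrays. Gata6 KO array 4, which was the highest of its group for 5 of the 7 factors, was the lowest for Glis3. Glis3 differed by -1.24 log2 units (SE 0.21, 95% interval -1.69 to -0.79, limma adjusted p = 0.000824), a 2.36-fold lower signal.

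Hnf4a, which regulates glucose metabolism and insulin secretion in beta cells, lies on chromosome 2 at 163506811 to 163572907. It measured 4.10, 4.33, 3.69 and 4.41 on the Gata6 KO arrays, against 4.60, 4.59 and 4.51 on control arrays. The control arrays lay within a narrow band (SD 0.05, n = 3), and Gata6 KO array 4 came close to it while array 3 lay far below (SD 0.32, n = 4). The log2 difference was -0.44 (SE 0.22, 95% interval -0.91 to 0.03) and did not pass (limma adjusted p = 0.163). Without Gata6 KO array 3 it was -0.29 (adjusted p = 0.333), and after quantile normalization it was -0.61 and passed (adjusted p = 0.0487). Acinar cells also make Hnf4a, and 17 acinar genes averaged between 10.89 and 11.01 log2 units on the Gata6 KO arrays and between 10.004 and 10.12 on the control arrays. The part of acinar RNA in the Hnf4a value was not tested.

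In the exact two-sided permutation test of each factor's difference of means, 6 of the 7 reached the smallest p that 4 against 3 arrays allow (p = 0.0286), and Hnf4a gave p = 0.0857. The 5 calls were made in each of the 15 other settings tried, in which the adjusted p of the 5 factors never exceeded 0.0299 (Mafa, without control array 1). Several of these settings cannot change a factor's difference and bear only on its adjusted p.

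The size of the difference varied among the factors. The 95% intervals of Nkx6-1 and Nkx2-2 did not overlap those of Mafa, Mnx1 and Hnf4a, and that of Nkx6-1 did not overlap that of Glis3 either. The interval of Pdx1 overlapped those of all other factors but Hnf4a. Differences between factors were not tested. Whether a low signal, as that of Mnx1, narrows a difference was not tested either. The factors' deviations from their group means over the 7 arrays were also compared, as a description. Pdx1 and Nkx6-1 moved closely together (Pearson r = 0.99, n = 7 arrays), both highest on control array 1 and low on Gata6 KO arrays 1 and 3. Over the 21 pairs of factors r ran between -0.67 and 0.99 with a median of 0.25, and the lowest belonged to Nkx2-2 and Glis3. All pairs share the same 7 arrays and their scaling.

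The genes whose deviations were most like those of each factor were sought among the 11090 genes with means above the median of all genes. For Pdx1 these were Nkx6-1, Mrpl49 and Fam222a, and for Nkx6-1 they were Fam222a, Pdx1 and Nmt2. Fam222a differed by -2.26 (SE 0.24, limma adjusted p = 2.57e-05), close to Nkx6-1. Hnf4a was most like Lrrn1, Bace2 and the pancreatic polypeptide gene Ppy, which differed by -4.56 (SE 0.69, adjusted p = 0.000357). Mafa was most like Zfp397, Arhgap31 and Ccn3, Nkx2-2 like Pfdn6, Prcc and Tepsin, Glis3 like Mybbp1a, Rab14 and Pno1, and Mnx1 like Porcn, Snrk and Rpl15. The 21 values of r lay between 0.97 and 1.00 over 7 arrays. Each was picked as among the highest of 11090 genes over so few arrays. Values near 1 therefore follow from the choice, and no link between genes is read from them.

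Factors of the wider islet network were set beside the 7. Of 27 measured other islet transcription factors 12 fell and 0 rose, against 7.36% and 17.4% of all genes. The median log2 difference was -0.54, against -1.24 for the 7 and 0.17 for all genes. Rfx6, a winged-helix factor of endocrine development, differed by -2.67 (SE 0.22, limma adjusted p = 3.25e-06). It measured between 2.58 and 3.23 on the Gata6 KO arrays and between 5.59 and 5.81 on control arrays. Pax6, a paired and homeodomain factor of all islet endocrine cells, differed by -2.34 (SE 0.22), and Isl1, a LIM homeodomain factor of the same cells, by -1.90 (SE 0.24). St18 and Mlxipl, which encodes the glucose-responsive factor ChREBP, differed by -2.30 (SE 0.25) and -2.06 (SE 0.19). Etv1, an ETS factor, differed by -1.49 (SE 0.22), and by -2.37 (SE 0.22) when its probe sets were averaged. Mlxipl had the tightest groups of these factors, between 3.32 and 3.41 in Gata6 KO and between 5.39 and 5.43 in control. Neurog3, the factor that starts endocrine differentiation, measured between 1.66 and 2.11 in Gata6 KO and between 2.04 and 2.16 in control, near the array medians, and did not pass (adjusted p = 0.515).

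**Figure D2:**
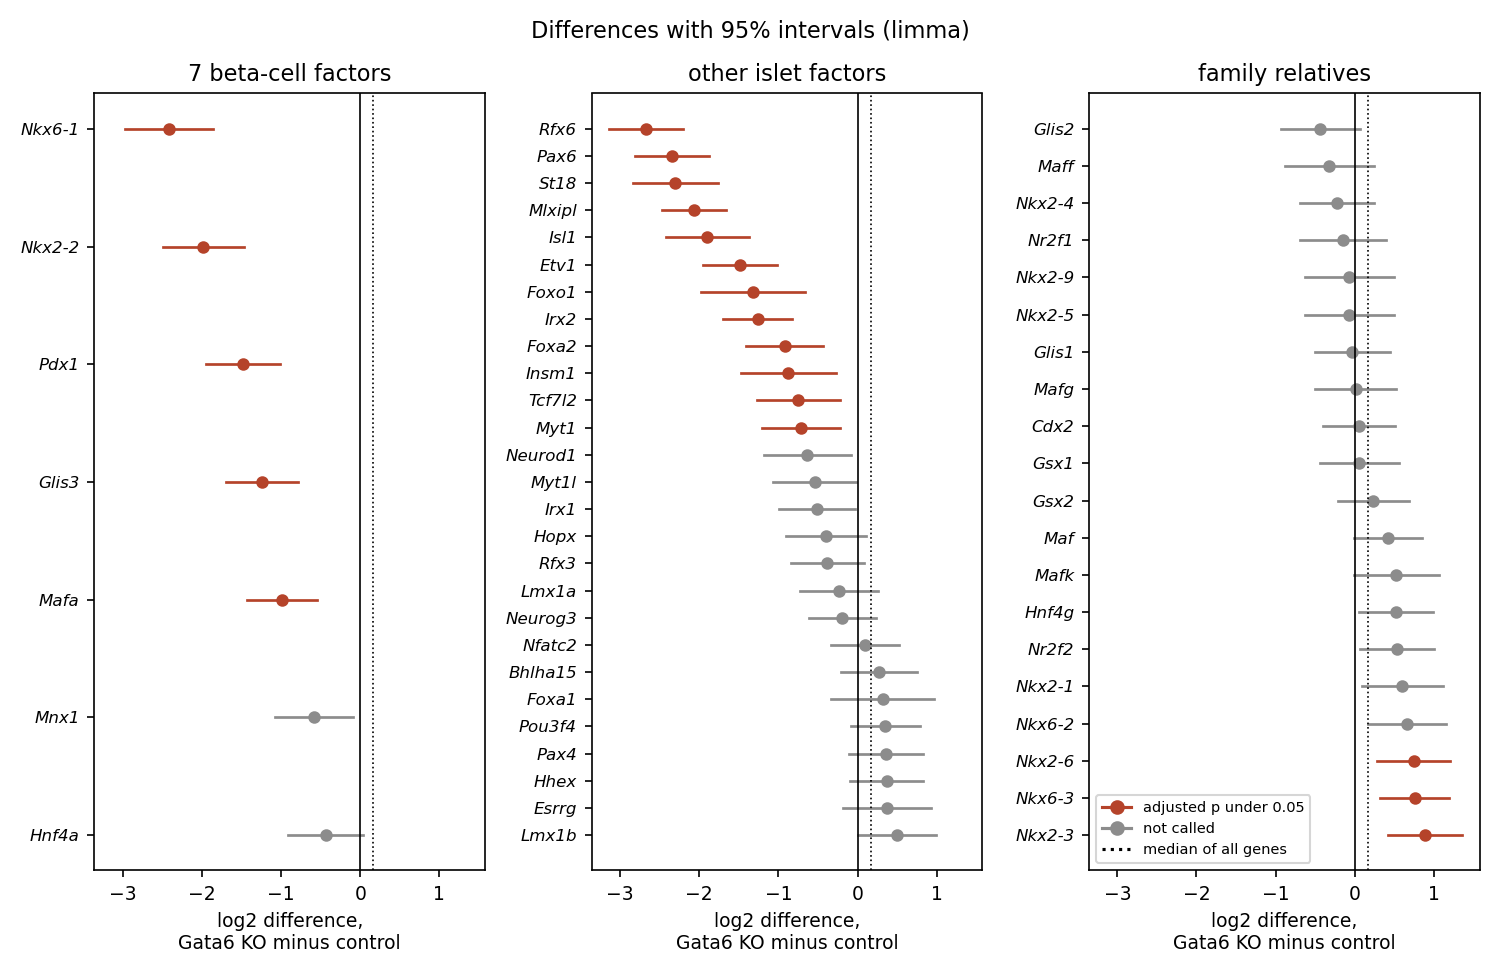
Log2 differences, Gata6 KO minus control (x axis), with 95% intervals from limma for the 7 factors, 27 other islet factors and 20 family relatives, in red where the adjusted p was under 0.05, with 0 as a solid line and the median of all genes (0.17) as a dotted line. Falls run to -2.42 among the 7 factors and -2.67 among the other islet factors, whereas the lowest relative, Glis2, stands at -0.44.

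Relatives of the 7 factors within their protein families were mostly not called. Of 20 measured relatives 3 rose and 0 fell, against 17.4% of all genes called higher, and the median log2 difference was 0.15, close to that of all genes. The homeodomain genes Nkx2-3, Nkx6-3 and Nkx2-6 differed by 0.89 (SE 0.22, limma adjusted p = 0.00904), 0.75 (SE 0.20, adjusted p = 0.0153) and 0.75 (SE 0.21, adjusted p = 0.0213). Nkx2-3 measured 2.15 to 2.43 in Gata6 KO and 1.18 to 1.87 in control, and Nkx2-6 1.91 to 2.49 and 1.31 to 1.79. Both lay around the array medians (1.89 to 2.11 and 1.72 to 1.78), whereas Nkx6-3 lay above them. The 3 calls depended on the scaling and on single arrays. After centring or quantile normalization 1 relative rose (Nkx2-3), after quantile normalization 1 relative fell, and without control array 1 none passed in either direction. Nkx6-2, Nkx2-1 and Nr2f2 differed by 0.66, 0.60 and 0.53 and did not pass (adjusted p = 0.0503, 0.0798 and 0.0874). The list mean lay between 2.61 and 3.00 in Gata6 KO and between 2.42 and 2.63 in control. Hnf4g, the relative of Hnf4a, differed by 0.53 (SE 0.22, adjusted p = 0.0941) and Glis2 by -0.44 (SE 0.23, adjusted p = 0.187).

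Genes that these factors are known to regulate in beta cells were mostly lower. Of 31 measured genes 24 fell and 1 rose, against 7.36% and 17.4% of all genes, with a median log2 difference of -1.71. The insulin gene Ins2 measured 7.56, 8.25, 6.71 and 8.19 on the Gata6 KO arrays, against 9.91, 8.88 and 8.74 on control arrays. It differed by -1.50 (SE 0.35, limma adjusted p = 0.0074), but by -1.13 without control array 1, the highest control array, and did not pass then (adjusted p = 0.0541). Ucn3, a peptide of mature beta cells, measured 4.91, 5.78, 3.09 and 6.22 on the Gata6 KO arrays, against 8.86, 8.198 and 8.40 on control arrays, and differed by -3.48 (SE 0.53). Slc2a2, which encodes the glucose transporter GLUT2, measured 6.201, 6.70, 3.87 and 6.91, against 9.48, 9.11 and 8.99 on control arrays, and differed by -3.27 (SE 0.53). In both genes Gata6 KO array 3 lay far below the other 3 arrays of its group.

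The 6 genes of the list with the smallest p were all lower. Abcc8, a subunit of the ATP-sensitive potassium channel, differed by -3.30 (SE 0.32), and Cacna1d, a voltage-gated calcium channel, by -2.27 (SE 0.22). Gjd2, the connexin that couples beta cells, differed by -2.90 (SE 0.24) and Ppp1r1a, a phosphatase inhibitor, by -2.72 (SE 0.25). Receptors for the incretin GLP-1 (Glp1r) and for fatty acids (Ffar1) differed by -2.58 (SE 0.24) and -2.58 (SE 0.23), and Iapp, which encodes amylin, by -1.56 (SE 0.33, limma adjusted p = 0.00407). The adjusted p of each of these genes but Iapp and Ins2 was at most 0.000586 (Slc2a2). Ero1b, an oxidase of insulin folding that was named after its value was seen, was the 1 gene of the list that rose, by 0.79 (SE 0.23, adjusted p = 0.0208), and after centring or quantile normalization no gene of the list rose. Ins1 was not analysed here.

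**Figure D3:**
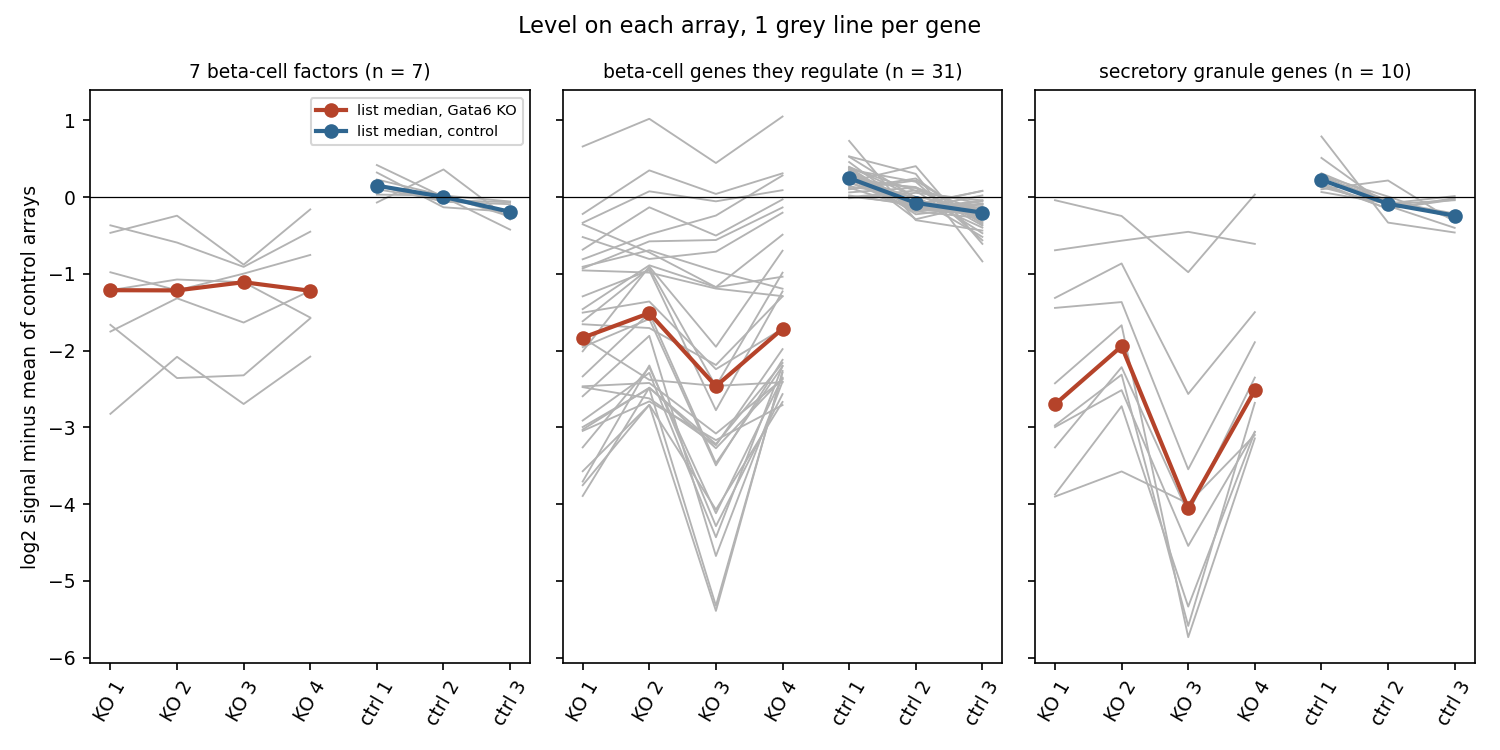
Log2 signal of each gene minus its mean on the control arrays (y axis) on the 4 Gata6 KO arrays and then the 3 control arrays (x axis), for the 7 factors, 31 genes they are known to regulate and 10 secretory granule genes, 1 grey line per gene and the list median in colour. Gata6 KO array 3 dips in the regulated and granule genes (lowest of its group for 20 of 31 and 9 of 10) and is the lowest for 2 of the 7 factors.

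The spread between the Gata6 KO arrays differed between the factors and the genes they regulate. The median SD over the 4 Gata6 KO arrays was 0.25 for the 7 factors, 0.46 for the regulated genes and 0.88 for the 10 granule genes, against 0.28 for all genes. Ptprn is in both the regulated and the granule list. On the control arrays the median SD was 0.24, 0.28 and 0.26, against 0.21 for all genes. Gata6 KO array 3 was the lowest of its group for 2 of the 7 factors, 20 of the 31 regulated genes and 9 of the 10 granule genes, against 6311 of all 22180 genes. Array 4 was the highest of its group for 5 of the 7 factors and for 7591 of all genes. The mean of the 7 factors was also lowest on array 3 (3.61). These counts were not tested. Gata6 KO array 3 is also the 1 array of its group with low Xist, as control array 3 is in its own. In a fit to the remaining 5 arrays the same 5 factors were called and 23 regulated genes fell, as did 1106 of all 22180 genes.

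The factors were also expressed relative to secretory granule genes, which all islet endocrine cells use. The mean of the 10 granule genes was 5.84 ± 0.83 (SD, n = 4) on the Gata6 KO arrays and 8.32 ± 0.25 (SD, n = 3) on control arrays. Relative to that mean, Nkx6-1 differed by 0.06 (SE 0.52, 95% interval -0.96 to 1.08). Nkx2-2 and Pdx1 differed by 0.50 (SE 0.53) and 1.00 (SE 0.54), and Glis3 and Mafa by 1.24 (SE 0.58) and 1.49 (SE 0.52). Mnx1 and Hnf4a stood highest, at 1.90 (SE 0.61) and 2.04 (SE 0.54). Because the granule mean fell strongly, 97.8% of all genes were called in this scale, nearly all higher, and nothing about the factors is read from their calls. Gata6 KO array 3, with the lowest granule mean, weighed on these values: without it Pdx1 differed by 0.65, Nkx2-2 by 0.21, Glis3 by 0.79 and Nkx6-1 by -0.25. Nkx6-1 also turned negative without control array 3 (-0.05). In the exact two-sided permutation test Mnx1 and Hnf4a gave p = 0.0286 each, the smallest possible, Glis3 and Mafa p = 0.0571, Pdx1 p = 0.0857, Nkx2-2 p = 0.371 and Nkx6-1 p = 0.971. The granule mean itself separated the groups, with at most 6.52 on Gata6 KO arrays and at least 8.12 on control arrays. These p-values carry its fall too, and a small one is not read as a change of that factor.

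Relative to the mean of 7 alpha-cell genes in place of the granule genes, all 7 values shift down by the same amount, and 5 were negative. Nkx6-1 differed by -1.62 and Nkx2-2 by -1.19 (exact permutation p = 0.0286 each), Pdx1 by -0.69 (p = 0.0571), Glis3 by -0.45 (p = 0.171) and Mafa by -0.19 (p = 0.314). Mnx1 differed by 0.22 (exact permutation p = 0.4) and Hnf4a by 0.36 (exact permutation p = 0.0286). These signs rest on the members of the offset: without Fap, which rose by 1.47 (SE 0.19), and Pou3f4, which differed by 0.35 (SE 0.20), an offset chosen after seeing the data, Mafa differed by 0.49, Glis3 by 0.24, Pdx1 by -0.0047, Nkx2-2 by -0.50 and Nkx6-1 by -0.94. A ratio within an array shows unequal change and does not show which of the genes changed. The alpha-cell mean also separated the groups (at most 4.70 in Gata6 KO, at least 5.20 in control), so its permutation p-values carry its fall too.

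Markers of the other cells that an islet preparation can hold also differed. Over all genes 17.4% were called higher and 7.36% lower. Of 17 acinar genes 10 rose and 0 fell. Of 10 mesenchymal genes 7 rose, of 10 myeloid genes 4 rose, of 8 lymphoid genes 4 rose and of 8 ductal genes 3 rose and 1 fell. Of 10 endothelial genes 4 fell and 1 rose. The acinar genes averaged 10.94 ± 0.06 (SD, n = 4) in Gata6 KO and 10.07 ± 0.06 (SD, n = 3) in control, the mesenchymal genes 4.57 ± 0.73 and 3.38 ± 0.41, and the lymphoid genes 2.88 ± 0.35 and 1.84 ± 0.06. Differences within the acinar list ran between 0.02 and 2.82. Its brightest genes, Ctrb1 and Cela1, differed by 0.05 and 0.02 and lay near the highest signal of the arrays (13.54). Whether the top of the scale limited their rise, and with it the list mean and count, was not tested. The myeloid mean ran between 2.86 and 4.12 in Gata6 KO and between 2.50 and 2.76 in control. The arrays give every probe set a signal, so that no marker can be called absent. Markers of the other endocrine cells were lower, as 4 of 7 alpha-cell genes fell and 1 rose, and of 8 genes for delta and PP cells 5 fell. The hormone genes Gcg (glucagon) and Sst (somatostatin) differed by -2.42 (SE 0.66, adjusted p = 0.0157) and -2.22 (SE 0.35, adjusted p = 0.000512). Gata6 KO array 3 was far below the rest for Gcg (6.85, against 10.31 to 10.55), and without it Gcg differed by -1.52 (SE 0.16). Without control array 1 or 2 Gcg did not pass (adjusted p = 0.0615 and 0.0538). The part of these cells in the falls of the 7 factors was not tested.

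**Figure D4:**
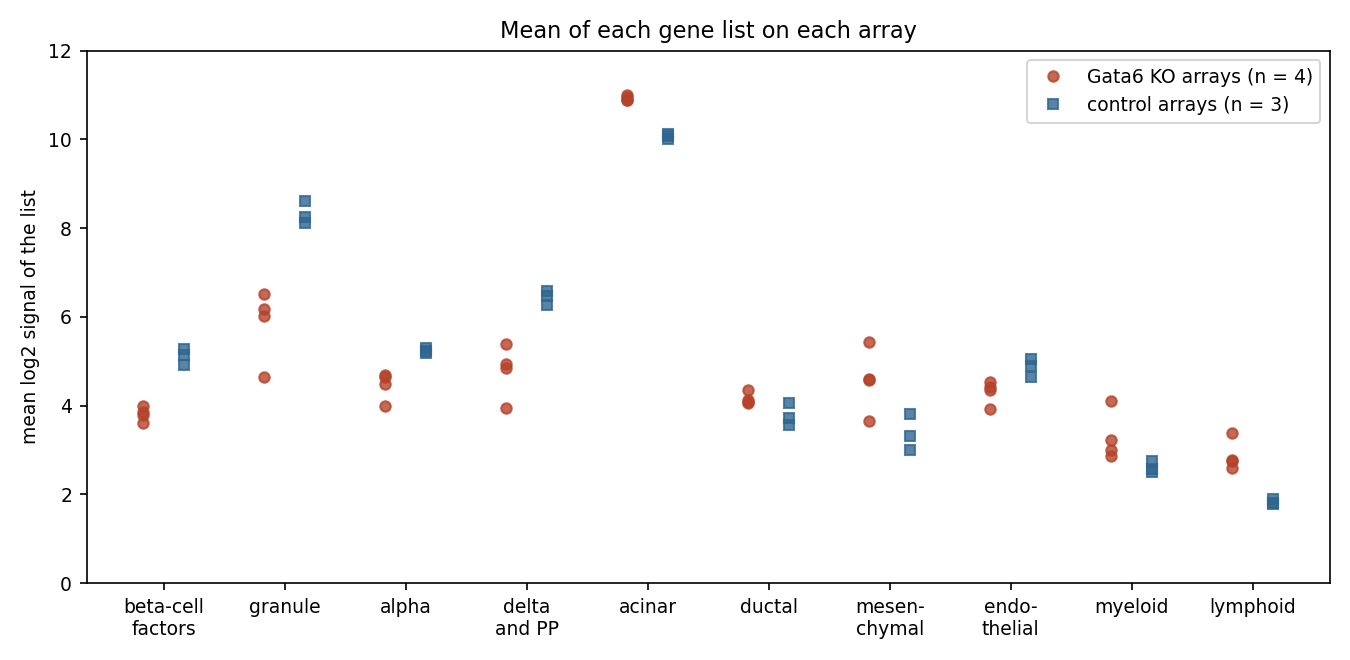
Mean log2 signal of each gene list (y axis) on each array, Gata6 KO arrays as red circles and control arrays as blue squares. The means of the 7 factors (3.61 to 4.00 in Gata6 KO, 4.92 to 5.29 in control), of granule genes and of the other endocrine lists are lower in Gata6 KO, while the acinar (10.89 to 11.01, against 10.004 to 10.12) and lymphoid means are higher.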

How the data were processed

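RNA of 7 islet pools was hybridised as biotin-labelled cDNA to Affymetrix whole-transcript mouse arrays, per the labels' protocols. The authors deposited log2 values made with RMA, per the submitters' processing notes, which also name Transcriptome Analysis Console and give no version. That the base is 2 follows from RMA. No source used here gives a genome build for the arrays. Of 41345 probe sets 23521 had 1 gene symbol, and the probe set with the highest mean stood for each of 22180 genes. Differences (Gata6 KO minus control) were fitted with limma 3.58.1 in R 4.3.3 (lmFit, eBayes with trend, no covariate, no filter), with Benjamini-Hochberg adjustment over all genes and a threshold of 0.05. Exact permutation tests used all 35 splits. The fit was also run on simulated data in which genes varied independently and the arrays had no shift. That run therefore does not bear on the higher overall signal of the Gata6 KO arrays. Granule-relative values subtract each array's mean of 10 granule genes, and their limma p-values share that offset over all genes.

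The 7 factors, gene lists, naming rule and alternatives were chosen with earlier results of these data known. Named were the factors, Gata6, Ins2, the 6 smallest p of each list of islet factors, relatives and regulated genes with 4 fixed regulated genes (Iapp, Slc2a2, Glp1r, Ucn3), 4 cofactors, 3 hormone genes among the brightest of the alpha, delta and PP cell lists and the 3 genes most like each factor. Ctrb1 and Cela1, the brightest acinar genes, were named too. Neurog3, Hnf4g, Glis2, Ero1b, Fap and Pou3f4 were named after their values were seen. An old symbol of Mnx1 was dropped from the relatives. Some lists share genes. Ptprn is a regulated and a granule gene, and Irx1, Irx2 and Pou3f4 are other islet factors and alpha-cell genes. Etv1 and Hhex are other islet factors and delta and PP cell genes, and Bhlha15 is also in the acinar list. Alternatives covered centring, quantile normalization, leaving out the 40% lowest genes, averaged probe sets, eBayes without trend or robust, the replicate number as a block, arrays with high Xist and leaving out each array. Same-numbered arrays deviated with r = 0.098, 0.0043 and 0.115, so the numbers were not taken to pair the samples. Figures used matplotlib 3.10.9. The number of arrays limits the precision, and no depth is defined for arrays.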

Additional observations from a re-analysis of the deposited data

Results flagged for a closer look

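Among 55 genes tested, which are those named by rule without the acinar, ductal, mesenchymal, endothelial and blood cell markers, 5 had a Gata6 KO array far from the other 3 arrays of the group, and 5.91% of all genes had one by the same criterion, which chance meets in about 1 in 20 groups. None of the 7 factors was among them. Gata6 was lowest on Gata6 KO array 4 (5.01, against at least 5.34 on the other 3). Nr2f2 was lowest on Gata6 KO array 2 (3.36), Ffar1 on Gata6 KO array 3 (3.23), Gcg on Gata6 KO array 3 (6.85, against at least 10.31), and Cacna1d was highest on Gata6 KO array 1 (2.62).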

How the results depend on the processing

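The 5 factors called lower (Nkx6-1, Nkx2-2, Pdx1, Glis3 and Mafa) kept direction and call in all 15 alternatives. These 15 are not independent. Averaged probe sets, either change of eBayes and the filter on low genes leave each difference as it was, as each factor has 1 probe set. The replicate block gives the same differences as leaving out Gata6 KO array 4. Since no factor's groups overlapped, leaving out an array could not turn a direction. Leaving out single arrays moved the log2 differences within -2.63 to -2.21 (Nkx6-1), -2.11 to -1.85 (Nkx2-2), -1.61 to -1.37 (Pdx1), -1.30 to -1.13 (Glis3), -1.08 to -0.82 (Mafa), -0.72 to -0.40 (Mnx1) and -0.53 to -0.29 (Hnf4a). Mnx1 passed after centring (-0.82) and after quantile normalization (-0.85), and Hnf4a after quantile normalization (-0.61). Either scaling removes the higher overall signal of the Gata6 KO arrays, and 2831 and 2892 genes were then called lower, against 1633. The calls over all genes, 5486, were 70.2% higher, against 38.1% after centring and 41.1% after quantile normalization. They numbered 3265 to 5613 without single arrays (lowest without control array 1, and 3586 without control array 2). They numbered 3337 on the 5 arrays with high Xist; genes called lower numbered 1019 to 1801 without single arrays, lowest without control array 1. With the replicate block, which drops the unpaired Gata6 KO array 4 from the estimate, Pdx1 differed by -1.57, Mnx1 by -0.62 and Hnf4a by -0.53, and no call on the factors changed.

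Relative to granule genes, leaving out single arrays gave 0.65 to 1.17 for Pdx1, -0.25 to 0.26 for Nkx6-1 and 0.79 to 1.46 for Glis3; Nkx6-1 turned negative without control array 3 (-0.05) or Gata6 KO array 3 (-0.25). With the alpha-cell offset the values were -0.69 (Pdx1), -1.62 (Nkx6-1), -0.19 (Mafa), -1.19 (Nkx2-2), -0.45 (Glis3), 0.22 (Mnx1) and 0.36 (Hnf4a), the first 5 of opposite sign, because the alpha-cell mean fell less than the granule mean. With Fap and Pou3f4 left out of that offset, chosen after seeing the data, they were -0.0047 (Pdx1), -0.94 (Nkx6-1), 0.49 (Mafa), -0.50 (Nkx2-2) and 0.24 (Glis3). Among the other genes named, Zfp397 turned to -0.096 after centring and -0.11 after quantile normalization, and Snrk to -0.059 and -0.087. Centring moves the difference of every gene by the same amount. The cause of the turns after quantile normalization was not tested. Rab14 turned to 0.11 with the replicate block, which drops Gata6 KO array 4, its lowest array (2.30, against 2.95 to 3.09 on the rest of the group). Rab14 ran between -0.15 and 0.11 without single arrays. No background or detection values were used, so how far a signal such as that of Mnx1 stands above background is not known.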

Other observations

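Genes listed as cofactors of these factors were partly lower. Of 18 measured cofactor genes 7 fell and 2 rose, against 7.36% and 17.4% of all genes, with a median log2 difference of -0.55. Without control array 1, 4 fell and 3 rose, with a median of -0.27, and on the 5 arrays with high Xist as well as without control array 3, 5 fell and 1 rose. Ep300, a histone acetyltransferase, measured between 3.15 and 4.497 on the Gata6 KO arrays and between 5.57 and 6.19 on control arrays, a difference of -1.89 (SE 0.30, limma adjusted p = 0.000472). Kdm6b, a histone demethylase, differed by -1.34 (SE 0.25, adjusted p = 0.0015), but by -0.53 (adjusted p = 0.0761) when its probe sets were averaged. Tle3, a corepressor bound by Nkx factors, differed by -1.05 (SE 0.23, adjusted p = 0.00496). Pcif1, which encodes an RNA cap methyltransferase, differed by 0.86 (SE 0.19, adjusted p = 0.00506). It was listed for a name it shares with a Pdx1-binding protein of another gene. Pcif1 is nevertheless counted among the 18 genes and among the 2 that rose.

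The antisense gene Hnf4aos, named after its values were seen, measured 2.94, 2.87, 3.11 and 2.91 on the Gata6 KO arrays, against 2.84, 1.98 and 2.58 on control arrays. Its groups did not overlap, as for 24.4% of all genes in this direction, and its difference of 0.49 (SE 0.23) did not pass (limma adjusted p = 0.142).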
